A study of Mus musculus with 24 samples.

Results

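Lrrc17, Armc10 and Napepld are 3 genes that lie side by side on mouse chromosome 5. They are described here across RNA-seq libraries from mouse cortex, as 3 of the 14769 gene symbols listed in the expression tables. Lrrc17 was chosen because its level differed between CL KO and CL WT and because that level was very high. Armc10 and Napepld were chosen by position only. The question put to the data was whether the difference and the high level are particular to Lrrc17.

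The study placed a filament in the middle cerebral artery of male mice aged 3 to 4 months for 1 h, withdrew it, and took cortex 1 day later, a model of ischemic stroke. The 24 libraries form 4 groups of 6. CL WT and CL KO are the CL groups, and PI WT and PI KO the PI groups. KO animals lack ciRS-7, the circular RNA also called Cdr1as, and WT animals carry it. The strain entry is C57BL/6N-Cdr1asem1Nikr for every library, WT included. All animals of every group had the operation, so no group is without ischemia in the animal. The labels do not spell out CL and PI, and the marks are used as given. A CL and a PI library with the same genotype and number come from the same animal.

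Lrrc17 encodes a secreted protein with leucine-rich repeats, best known from bone, where it restrains the formation of osteoclasts driven by the cytokine RANKL. Armc10 encodes an armadillo-repeat protein of the mitochondrial outer membrane, related to the Armcx proteins that act in mitochondrial movement and dynamics. Napepld encodes the phospholipase that releases N-acylethanolamines, among them the endocannabinoid anandamide, from membrane lipids.

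Each table holds log2 CPM, the log2 of read counts scaled to a common library total, for a pair of groups. Each was scaled on its own, so tests stayed within a table. In 100% of genes, both ends of a group of 6 held 2 equal values, drawn in to the quartiles of that group. Levels below are therefore the mean of the 4 inner values, which can be solved from the quartiles, ± its standard error (SE, n = 6 libraries). The steps between low values gave effective depths of 3.75 to 10.5 megareads (M reads) per library, with a median of 6.91. CL KO replicate 6 stood apart. It had the lowest depth, 3.75 and 3.83 M reads in its 2 tables, and it was among the untouched middle values in only 10.5% of genes, against 19.3% to 47.0% in the other libraries. Cdr1as stood at 11.83 ± 0.05 log2 CPM in CL WT and 11.42 ± 0.06 in PI WT, and its trimmed means in CL KO and PI KO were 0.00987 and 0.0127 CPM, under the level of 3 reads in any library (0.286 to 0.801 CPM).

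In the mouse build GRCm38 with the GENCODE M21 annotation, Lrrc17 (ENSMUSG00000039883.5) spans chr5:21543559-21575904 on the plus strand. Armc10 (ENSMUSG00000038525.16) follows at chr5:21645813-21662694 on the plus strand, 69.9 kb beyond the end of Lrrc17. Napepld (ENSMUSG00000044968.16) lies at chr5:21662901-21701396 on the minus strand, only 207 bases from Armc10, and the 3′ ends of these genes face each other. The whole of Lrrc17 lies within the span of Fbxl13, an F-box gene on the minus strand at chr5:21483847-21645634. Exons of Lrrc17 and Fbxl13 overlap over 161 bases, at chr5:21543660-21543719 and chr5:21552093-21552193. Whether the authors' counting used strand is not given in the sources used here, so reads from these overlapping stretches cannot be told apart. Fbxl13 was not analysed here.

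The last exon of Lrrc17 also holds a stretch nearly identical to Bc1, a short and very abundant noncoding RNA of rodent neurons that is transcribed from its own gene on chromosome 7. It is shown because reads from 2 such copies can be hard to tell apart. In the annotated coding transcript of Lrrc17 the stretch lies in the 3′ UTR, in exon 4 of 4, at chr5:21575448-21575538, past the stop codon that ends at 21575361. It matches bases 1 to 91 of Bc1 on the same strand, with 89 of 91 bases identical (97.8%). The differences, with the Bc1 base first and positions counted from 1 at the 5′ end of Bc1, are G4T and A87C. Bc1, from the GENCODE transcript at chr7:144914470-144914637 on the plus strand, is printed 5′ to 3′, with the aligned stretch, bases 1 to 91, in capitals. G4 and A87, which differ in Lrrc17, lie in that stretch and are in capitals too.
Bc1: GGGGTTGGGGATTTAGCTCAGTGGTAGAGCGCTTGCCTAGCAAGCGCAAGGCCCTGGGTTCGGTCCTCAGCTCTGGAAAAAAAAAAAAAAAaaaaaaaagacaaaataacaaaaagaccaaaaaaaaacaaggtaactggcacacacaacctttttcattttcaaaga

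Bases 5 to 34 of Bc1 show how alike the copies are, with each base that differs from Bc1 in capitals. The genes shown are Lrrc17 and the 6 others listed for the CL groups that carry a copy on the same strand as Bc1. The Lrrc17 window lies at chr5:21575452-21575481.
Bc1: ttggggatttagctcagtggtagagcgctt
Lrrc17: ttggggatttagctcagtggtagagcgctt
Cnot3: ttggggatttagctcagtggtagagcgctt
Gm15728: ttggggatttagctcaAtggtagagcgctt
St3gal1: ttggggatttagTtcagtggtagagTgctt
Timm22: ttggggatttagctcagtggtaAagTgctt
Kif3a: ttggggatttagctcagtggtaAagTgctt
Dennd4a: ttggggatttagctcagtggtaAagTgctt
Over these 30 bases Lrrc17 and Cnot3 had 0 mismatches to Bc1, Gm15728 had 1, and St3gal1, Timm22, Kif3a and Dennd4a had 2 each. On the opposite strand Slc52a2, Elp6, Akap5 and Ppp1r15b also had 0. Of all annotated genes, 24 had a transcript match to Bc1 of at least 80 bases at 90% identity or more, and that of Lrrc17 was the closest by identity. Transcripts of Napepld matched 0 other genes by the same rule, and those of Armc10 matched AU022133 (91.4% over 887 bases) and Gm5186 (92.8% over 291 bases). How the authors assigned reads that fit more than 1 place is not given in the sources used here, so all Lrrc17 values below are of uncertain origin in that respect, and the part of Bc1 in them was not tested. The level of Bc1 itself was not analysed here.

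Lrrc17 stood far above its neighbours in every group. In the CL table, which holds CL KO and CL WT, its trimmed mean was 10.19 ± 0.06 log2 CPM (SE, n = 6), or 1169 CPM, in CL KO and 9.69 ± 0.05, or 826 CPM, in CL WT. In the PI table, which holds PI KO and PI WT, it was 10.37 ± 0.08 in PI KO and 10.27 ± 0.18 in PI WT. Armc10 stood at 3.98 ± 0.10 log2 CPM in CL KO, 4.06 ± 0.05 in CL WT, 4.08 ± 0.12 in PI KO and 4.05 ± 0.05 in PI WT. Napepld stood at 4.47 ± 0.13 in CL KO, 4.65 ± 0.01 in CL WT, 4.59 ± 0.04 in PI KO and 4.50 ± 0.09 in PI WT. Within a group the order from high to low was Lrrc17, Napepld, Armc10. Over groups the order of Lrrc17 was PI KO, PI WT, CL KO, CL WT. PI KO and PI WT did not differ beyond their spread, and PI WT and CL KO stand in separately scaled tables and were not compared.

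Per kb of exon, which allows genes to be compared, Lrrc17 in CL WT had 229 CPM per kb and ranked 77 of 13943 genes with a known length. That is the 99.4th percentile. Over the groups and tables its rank ran from 54 to 77. Armc10 (4.90 CPM per kb) and Napepld (6.33 CPM per kb) stood at the 52.5th and 59.9th percentile in CL WT, so Lrrc17 was 46.8 times Armc10 and 36.2 times Napepld per kb. The 17 listed genes within 1 Mb besides Lrrc17, with Armc10 and Napepld among them, had percentiles from 3.69 to 78.6 with a median of 52.5. The highest of them was Magi2, a synaptic scaffold gene, and Lrrc17 was 17.6 times as high. These levels are a description, since the high level was a reason for the choice.

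**Figure D1:**
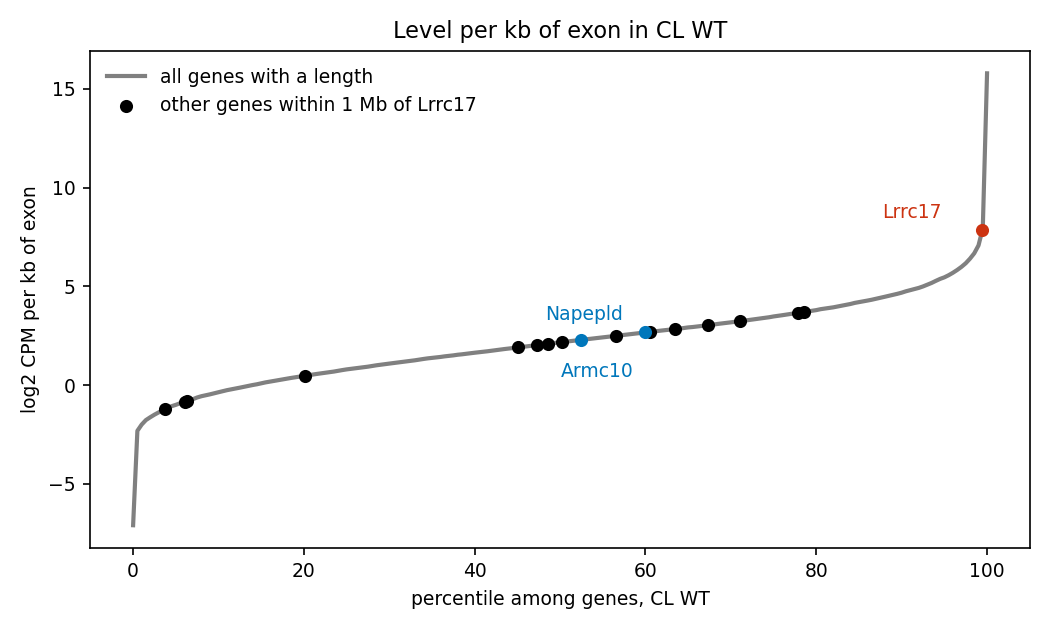
Level per kb of exon (y axis, log2 CPM per kb, trimmed mean of 6 CL WT libraries) against the percentile among genes (x axis). The grey line is all genes with a known length, red is Lrrc17, blue are Armc10 and Napepld, and black are the other listed genes within 1 Mb. Lrrc17 sits at the 99.4th percentile and no other neighbour is above 78.6.

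High levels of this order were not particular to Lrrc17 among all genes. Of the 76 genes above it per kb, 41 were protein coding, 8 snRNA, 6 misc_RNA, 6 mitochondrial tRNA and 5 miRNA by annotation. Among nuclear protein-coding genes it ranked 30 of 12374. Those above it included Snap25 (vesicle fusion), Slc1a2 (the main glial glutamate transporter) and Actb. The next 3 above it were Gm21092, a pseudogene, Rplp1, a ribosomal protein gene, and Psap, the precursor of the saposins. The next 3 below it were Gm24895, a snoRNA, Syt1, the calcium sensor of synaptic vesicles, and Ywhah, a 14-3-3 protein gene. Psap (7.85 on the log2 scale per kb), Gm24895 (7.82) and Syt1 (7.80) lay within the SE of Lrrc17 (7.84, SE 0.05), and Lrrc17 lay within the SE of Gm21092 (7.90, SE 0.11), so the order among these genes is not settled.

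The first comparison asks how loss of ciRS-7 relates to these genes in CL, where Lrrc17 was picked. Lrrc17 in CL KO replicates 1 to 6 had deposited values of 10.26, 10.21, 10.19, 10.11, 10.11 and 10.26 log2 CPM. In CL WT replicates 1 to 6 they were 9.77, 9.64, 9.65, 9.64, 9.68 and 9.77. Every deposited CL KO value was above every deposited CL WT value, as was the case, in either direction, for 13.5% of genes. The own values of the lowest CL KO and the highest CL WT library are not known, because the ends were drawn in. The gap was larger than the range of these drawn-in values within either group. The difference was 0.50 on the log2 scale (SE 0.06), a 1.41-fold higher level in CL KO, and it is given as a description because it chose the gene. In this comparison 4 of 14323 genes were called, or 0.0279%, at an adjusted p under 0.05, and Lrrc17 was 1 of them (adjusted p = 0.0129, trimmed-mean test with limma's empirical Bayes step and Benjamini-Hochberg adjustment). Without CL KO replicate 6 the difference was 0.47 (adjusted p = 0.0257). The call was lost without CL KO replicate 2 or 3, or without CL WT replicate 2, 3, 4 or 5, at adjusted p from 0.0522 to 0.0755 by limma's moderated test of trimmed means, with differences of 0.48 to 0.50. It was also lost with no trend of the prior variance (limma adjusted p = 0.314).

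**Figure D2:**
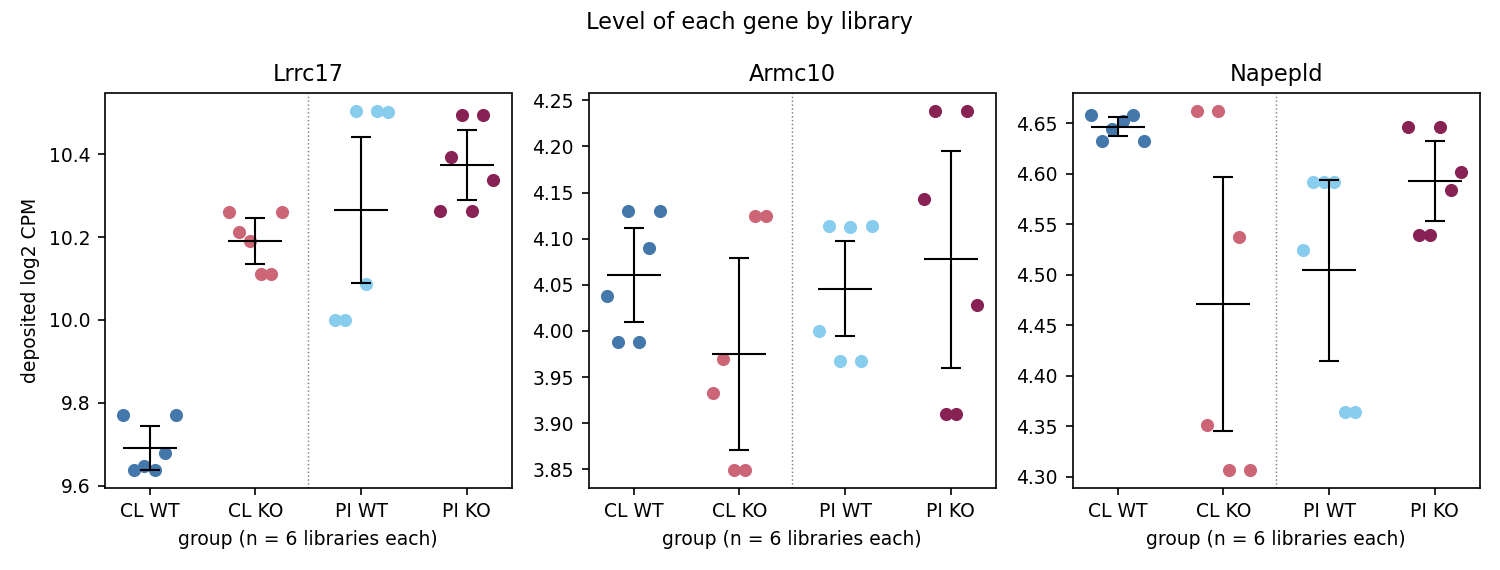
Deposited log2 CPM (y axis) of Lrrc17, Armc10 and Napepld in each library (points) by group (x axis), with the trimmed mean and its SE (black, n = 6). The dotted line divides the separately scaled table of CL WT and CL KO from that of PI WT and PI KO, and the y axes differ and do not start at 0. In CL the Lrrc17 groups do not overlap, and those of Armc10 and Napepld do.

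The neighbours did not show that difference. Armc10 ranged from 3.85 to 4.12 log2 CPM in CL KO and from 3.99 to 4.13 in CL WT, and the groups overlapped. Its difference was -0.09 (SE 0.11, adjusted p = 0.974, limma as above). Napepld ranged from 4.31 to 4.66 in CL KO and from 4.63 to 4.66 in CL WT. CL WT libraries were close together, while CL KO libraries were spread, with 2 of 6 as high as CL WT. Its difference was -0.18 (SE 0.11, adjusted p = 0.902, limma as above). Without CL KO replicate 6 these values were -0.15 for Armc10 and -0.12 for Napepld.

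Among genes as highly expressed as Lrrc17, a difference of this size between CL KO and CL WT was rare. Of 222 other genes with a trimmed mean of at least 9 log2 CPM in either group of that table, 1 had a difference as large, and that was Cdr1as, the deleted RNA, in the opposite direction. The median absolute difference of the 222 was 0.032. Over all levels 410 of 14322 other genes, 2.86%, had one as large. As Lrrc17 was picked for its difference between CL KO and CL WT, these counts are a description.

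PI libraries come from the same animals but are other RNA samples, and were not used to pick the gene. Lrrc17 in PI KO replicates 1 to 6 had 10.26, 10.39, 10.49, 10.26, 10.49 and 10.34 log2 CPM. In PI WT replicates 1 to 6 it had 10.001, 10.001, 10.50, 10.09, 10.50 and 10.50. Deposited PI WT values fell into a lower set of 3 and a higher set of 3, and the deposited PI KO values lay between those sets. The second-highest value solved from the quartiles was 10.53 in PI KO and 10.50 in PI WT, so the PI KO libraries themselves do not all lie between. The difference was 0.11 (SE 0.14, adjusted p = 0.936 by the same limma-moderated test), where 3 of 14452 genes, 0.0208%, were called. It ran from 0.0099 without PI WT replicate 1 or 2 to 0.19 over the fits that left out 1 library. The difference seen in CL was thus not called in PI. Armc10 differed by 0.03 (SE 0.12, adjusted p = 0.986) and Napepld by 0.09 (SE 0.10, adjusted p = 0.919), both by limma's moderated test. The sign of the Armc10 value was negative (-0.03) without PI KO replicate 2 or 5. Of the 209 other genes with at least 9 log2 CPM in either group of that table, 37 had a difference as large as that of Lrrc17 in either direction.

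In WT animals Lrrc17 was higher in PI than in CL. In the table of these groups PI WT replicates 1 to 6 had 9.97, 9.97, 10.47, 10.07, 10.47 and 10.47 log2 CPM, and CL WT replicates 1 to 6 had 9.80, 9.67, 9.69, 9.67, 9.71 and 9.80. Every deposited PI WT value was above every CL WT value. Differences by animal are not given, because a value drawn in to a group quartile is not that animal's own. The difference was 0.51 (SE 0.13, adjusted p = 0.0257, limma-moderated trimmed-mean test), a 1.43-fold higher level. In that comparison 1537 of 14489 genes, 10.6%, were called, and non-overlapping deposited values occurred in 32.8% of genes. CL WT libraries serve both in this comparison and in the one that picked Lrrc17, so the values are not independent of the choice. The call was lost without PI WT replicate 3, 5 or 6 or CL WT replicate 2, 3, 4 or 5, at adjusted p from 0.0632 to 0.0818 by limma's test, with differences of 0.44 to 0.51. It was also lost with no trend of the prior variance (limma adjusted p = 0.109). Of 234 other genes with at least 9 log2 CPM in either group, 7 had a difference as large, 2 of them in the same direction.

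Napepld showed the opposite sign in WT animals without passing the test. It ranged from 4.34 to 4.56 log2 CPM in PI WT and from 4.67 to 4.69 in CL WT. All deposited PI WT values lay below all deposited CL WT values, and 32.8% of genes had such a separation in either direction. The difference was -0.20 (SE 0.09, unadjusted p = 0.0443, adjusted p = 0.195 by the limma-moderated test, n = 6 libraries per group). With the animal as a block, limma on the deposited, drawn-in values gave an adjusted p of 0.00413. Those values understate the spread, and limma on them without the block also passed (adjusted p = 0.00219). Armc10 ranged from 3.94 to 4.09 in PI WT and from 4.02 to 4.16 in CL WT, with a difference of -0.07 (SE 0.09, adjusted p = 0.696 by limma's moderated test).

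In KO animals the difference of Lrrc17 between PI and CL was smaller in size and not called. PI KO replicates 1 to 6 had 10.23, 10.36, 10.46, 10.23, 10.46 and 10.30 log2 CPM, and CL KO replicates 1 to 6 had 10.29, 10.24, 10.22, 10.14, 10.14 and 10.29. The groups overlapped. The difference was 0.12 (SE 0.08, adjusted p = 0.382 by the limma-moderated test), where 1440 of 14338 genes, 10%, were called. Limma on the drawn-in values with the animal as a block gave an adjusted p of 0.0438. Without CL KO replicate 6 the difference was 0.15 (adjusted p = 0.298, limma-moderated). Armc10 differed by 0.04 (SE 0.14) and Napepld by 0.06 (SE 0.12).

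Whether the PI to CL difference of Lrrc17 was unequal in KO and WT was tested directly. The PI to CL difference in KO animals less that in WT animals, the interaction, was -0.39 (SE 0.17). By limma's moderated test the unadjusted p was 0.0343 and the adjusted p was 0.992, with 6 libraries per group. Of 14211 genes 0 were called (0%) and 646, or 4.55%, had an unadjusted p under 0.05, by that test. This value contains the CL difference that picked the gene, and it cannot be read as independent of it. Without CL KO replicate 6 it was -0.36 (adjusted p = 0.997, limma-moderated). With the animal as a block, limma on the drawn-in values gave adjusted p = 0.0135 for Lrrc17 and adjusted p = 0.0345 for Napepld, where it called 2216 genes. Napepld had 0.27 (SE 0.15, adjusted p = 0.992 by the trimmed-mean test with limma) and Armc10 0.12 (SE 0.17).

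The wider neighbourhood was then described to see whether Lrrc17 moved with its surroundings. Of 50 annotated genes within 1 Mb of Lrrc17, 19 were listed in at least 1 table, 16 of them among the 19 protein-coding genes there. In the comparison of CL KO with CL WT 18 were listed. The called gene was Lrrc17, which was picked on this comparison, so its call is a description. Of the 17 others 0 had an unadjusted p under 0.05 by the limma-moderated test, where 5.73% of all genes did. So few genes cannot tell 0 from that share. The differences of the 17 ran from -0.18 (Napepld) to 0.33 (Gsap), with a median of -0.02 against -0.002 over all genes. Deposited values did not overlap for 3 of the 17, against 13.5% of all genes: Gsap, which encodes the gamma-secretase activating protein (0.33), Ptpn12, a tyrosine phosphatase gene (0.09), and Psmc2, a proteasome subunit gene (-0.14).

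Between PI KO and PI WT 0 of the 19 listed neighbourhood genes were called, and 2 of the 18 others had an unadjusted p under 0.05 by the limma-moderated test, where 5.75% of all genes did. These were Tmem60 (0.23) and Ptpn12 (0.19). Between PI WT and CL WT 3 of 18 were called, against 10.6% of all genes. Besides Lrrc17 these were Fgl2, a fibrinogen-like gene of immune cells (1.08, SE 0.19, adjusted p = 0.00287, limma-moderated), and Ptpn12 (0.28, SE 0.07, adjusted p = 0.0216, limma-moderated). Among KO animals Fgl2 (1.23), Ptpn12 (0.38) and Psmc2 (0.40) were called, 3 of 18 against 10% of all genes, and Lrrc17 was not. Reln, which encodes the secreted matrix protein reelin and lies 309 kb from Lrrc17, had differences from -0.06 to 0.06 and was called in none of these 4 comparisons.

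**Figure D3:**
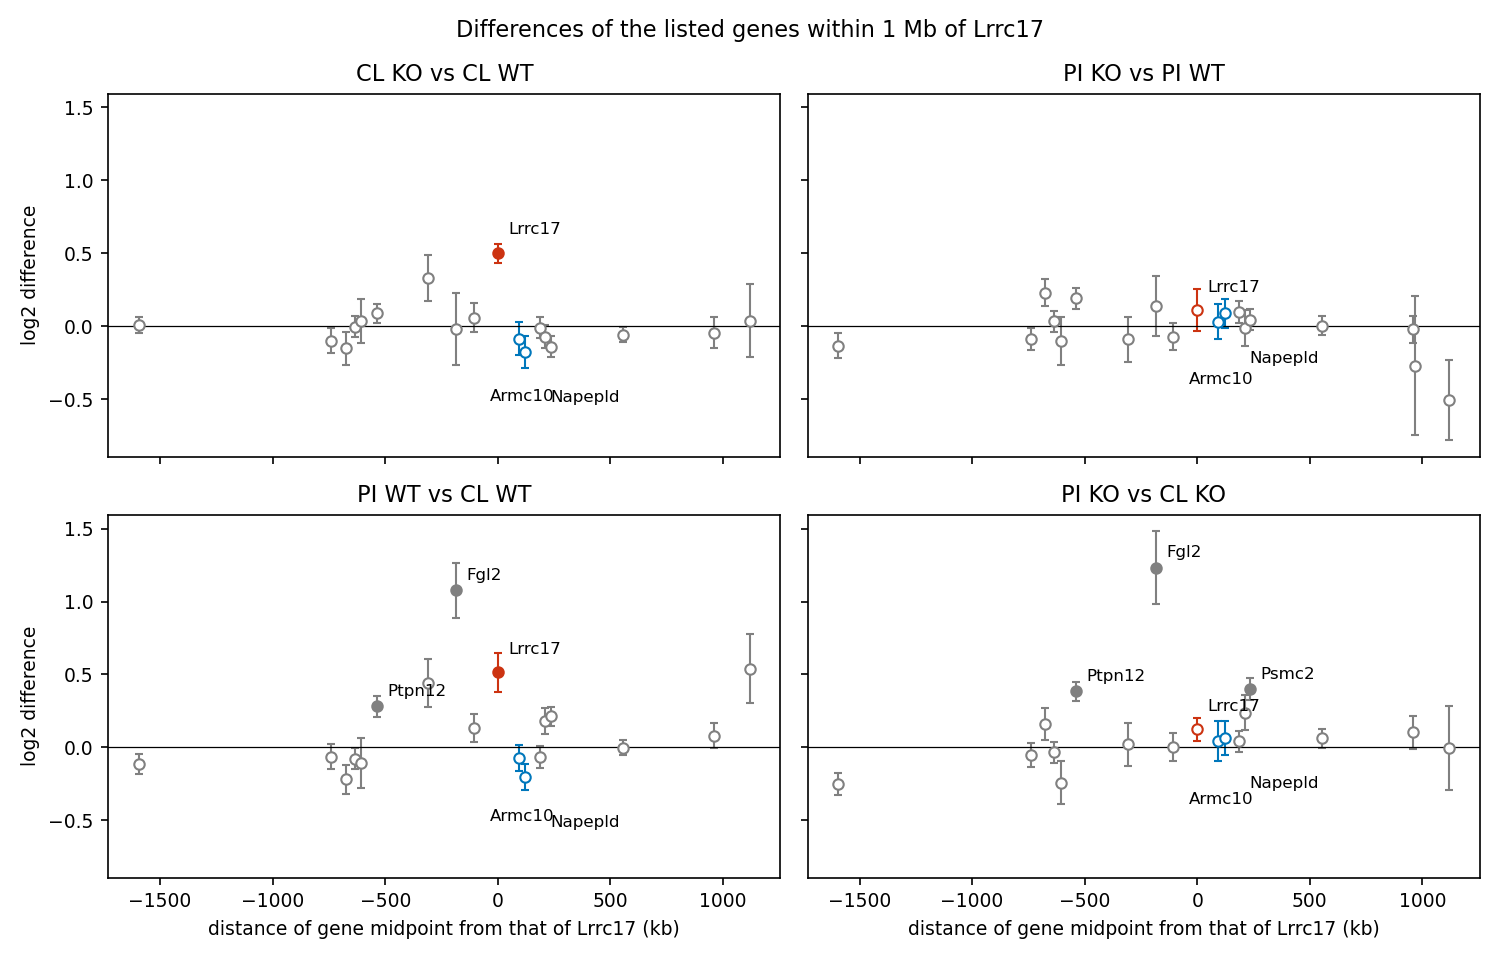
Log2 difference with its SE (y axis) of each listed gene near Lrrc17, against the distance of its midpoint from that of Lrrc17 (x axis, kb), in 4 comparisons. Filled points are called at an adjusted p under 0.05, red is Lrrc17 and blue are Armc10 and Napepld. In CL KO against CL WT, the comparison that picked Lrrc17, the filled point is Lrrc17, at 0.50, and the others lie between -0.18 and 0.33.

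Genes elsewhere in the genome that carry a copy of the same Bc1 stretch were compared with Lrrc17. They were chosen after values had been seen, and they were not tested as a set. The p-values and calls given for single genes among them are a description. Of the 23 others, 8 carry it on the same strand as Bc1, and 6 of these were listed in the CL table. All 6 had a positive difference there, with a median of 0.16 against -0.002 over all genes, of which 49.3% were positive. Deposited values of 4 of the 6 lay wholly higher in CL KO, as for 6.7% of all genes, and 0 were called, against 0.0279% of all genes. Of the 10 listed genes with the copy on the opposite strand, 6 had a positive difference, with a median of 0.02. Elp6, Akap5 and Ppp1r15b, which share the 30 bases shown with Bc1, had differences of -0.13, 0.03 and 0.05.

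St3gal1, which encodes a sialyltransferase, carries the copy in a noncoding transcript at chr15:67113251-67113339, with 94.4% identity. Its deposited values ran from 2.70 to 2.95 log2 CPM in CL KO and from 2.25 to 2.56 in CL WT, without overlap. The difference was 0.43 (SE 0.16) in CL KO against CL WT and 0.03 (SE 0.15) in PI KO against PI WT. It was 0.59 (SE 0.16, adjusted p = 0.0317, limma-moderated) in PI WT against CL WT and 0.18 (SE 0.15) in PI KO against CL KO. Timm22, which encodes a core part of the carrier translocase of the inner mitochondrial membrane, carries it in the 3′ UTR at chr11:76414612-76414704, with 93.5% identity. Its values ran from 4.49 to 4.86 in CL KO and from 4.21 to 4.44 in CL WT. In the same order of comparisons its differences were 0.33, -0.02, 0.38 (adjusted p = 0.0374, limma-moderated) and 0.03. St3gal1 and Timm22 had, like Lrrc17, their larger values in both comparisons with CL WT, and those comparisons share the CL WT libraries. They are 2 of the 6 same-strand genes. In PI WT against CL WT 4 of these 6 had a positive and 2 a negative difference, where 52.3% of all genes were positive. Of the 6, 2 were called there, against 10.6% of all genes.

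Slc52a2, a riboflavin transporter gene, has the copy in its 3′ UTR at chr15:76543451-76543545 on the opposite strand, with 96.8% identity. It ran from 2.04 to 2.33 log2 CPM in CL KO and from 1.26 to 1.57 in CL WT, without overlap, a difference of 0.75 (SE 0.19, adjusted p = 0.538, limma-moderated). Its other differences were -0.01 in PI KO against PI WT, 0.34 in PI WT against CL WT and -0.43 in PI KO against CL KO. Gm15728, a lincRNA, had differences of 0.24, 0.25, 0.08 and 0.08 in that order. Cnot3, a subunit of the CCR4-NOT deadenylase with the second closest copy (96.9% identity), had 0.03, 0.05, -0.04 and -0.02. The more highly expressed Kif3a and Dennd4a, a kinesin and a Rab exchange factor gene, had 0.06 and 0.07 in CL KO against CL WT. In the other comparisons, in that order, Kif3a had 0.08, -0.18 and -0.16, and Dennd4a had 0.02, 0.05 and -0.01. Of the 6 same-strand genes Cnot3 had the smallest difference in CL KO against CL WT (0.03, SE 0.14). Its copy lies in a noncoding transcript annotated as retaining an intron. How difference and identity relate was not tested. Whether reads of Bc1 or of other copies enter any of these values was not tested.

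**Figure D4:**
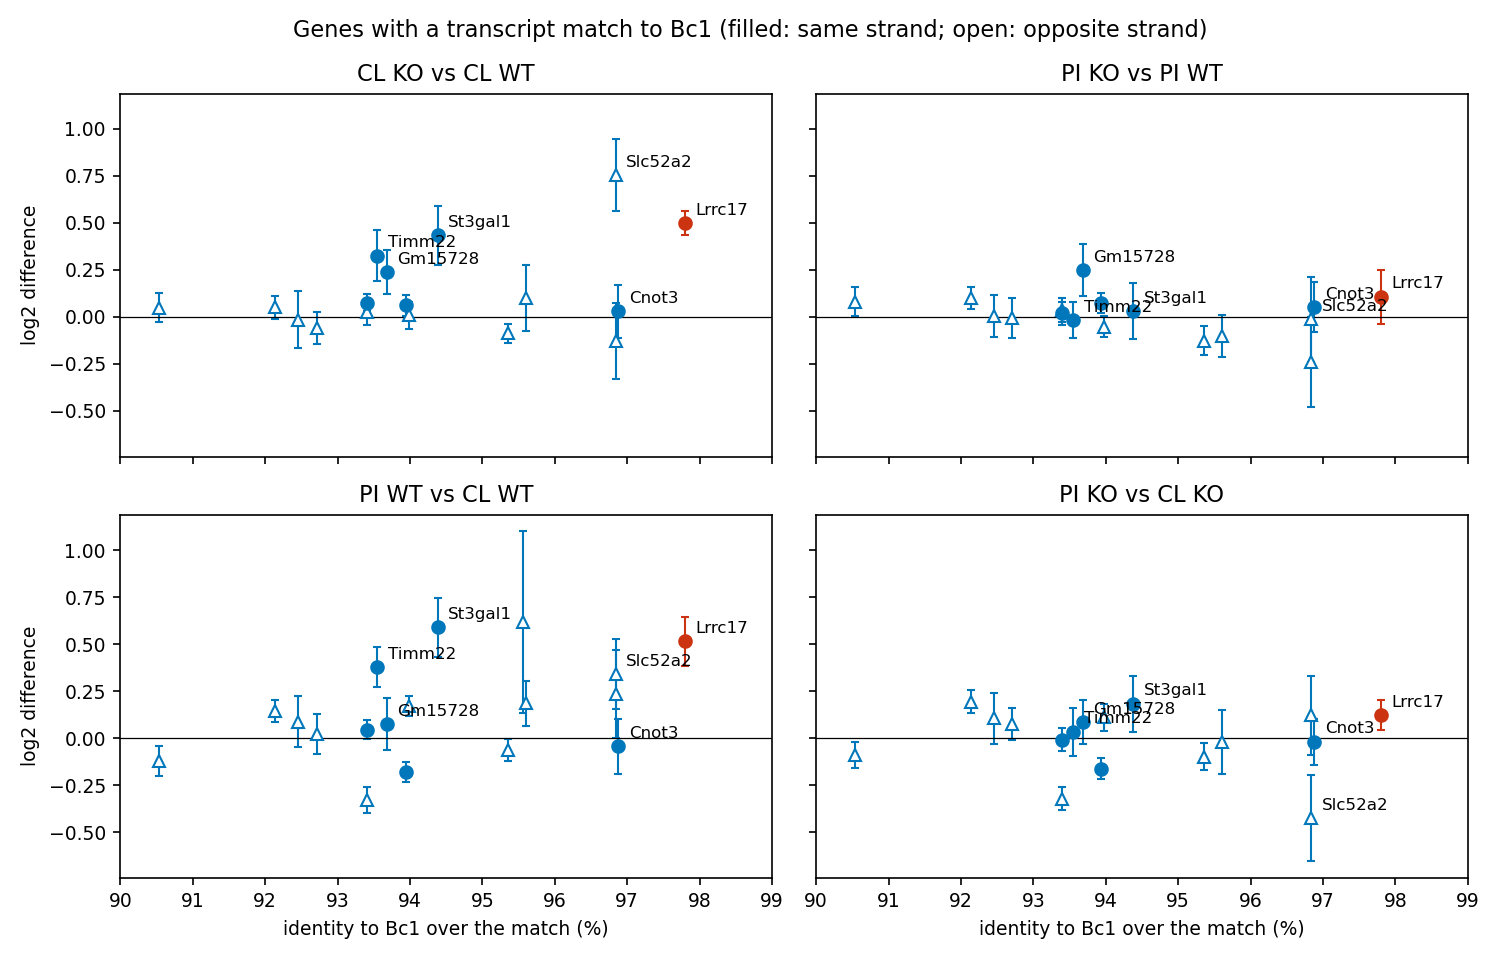
Log2 difference with its SE (y axis) of Lrrc17 (red) and the other listed genes with a match to Bc1 (blue), against identity over the match (x axis, %), in 4 comparisons. Filled circles have the copy on the same strand as Bc1 and open triangles on the opposite strand. In CL KO against CL WT all filled circles are above 0, from 0.03 (Cnot3) to 0.50 (Lrrc17).

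Genes that act with Napepld in N-acylethanolamine and endocannabinoid metabolism were not called between genotypes. Of 25 such genes besides Napepld, 18 were listed, and 0 were called in CL KO against CL WT or in PI KO against PI WT, with 2 at an unadjusted p under 0.05 in each by the limma-moderated test. Over all genes 0.0279% and 0.0208% were called, and 5.73% and 5.75% had such an unadjusted p. From CL to PI in WT animals Ptgs2, the inducible cyclooxygenase, rose (0.49, SE 0.12, adjusted p = 0.022, limma-moderated), where 5.2% of all genes were called higher and 5.4% lower, and the median of the list was -0.06 against 0.01 over all genes. From CL to PI in KO animals 2 rose and 2 fell, where 5.11% of all genes were called higher and 4.94% lower. Fabp5, a carrier of fatty acids and anandamide, rose by 0.51, Ptgs2 rose by 0.69, and Faah, the hydrolase that breaks down anandamide, fell by 0.39. Cnr1, the main neuronal cannabinoid receptor, had 0.21 in PI WT against CL WT (adjusted p = 0.0657, limma-moderated).

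Of the relatives of Armc10 and genes of mitochondrial dynamics all 24 were listed, and 0 were called between genotypes in CL or in PI, with 3 and 0 at an unadjusted p under 0.05 by the limma-moderated test, against 0.0279% and 0.0208% of all genes called and 5.73% and 5.75% at that unadjusted p. From CL to PI, WT animals had Armcx2 higher by 0.22, while Armcx3 fell by 0.28 and Kif5c, a kinesin heavy chain of neurons, fell by 0.19, 3 of 24 called against 10.6% of all genes. From CL to PI, in KO animals, Rhot2, which encodes the mitochondrial GTPase Miro2, fell by 0.50 (adjusted p = 0.00621, limma-moderated), 1 of 24 against 10% of all genes. The median over the list was 0.02 in the former and -0.01 in the latter, against 0.01 and -0.0007 over all genes.

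RANKL pathway genes, the setting in which Lrrc17 is best known, had 0 of 16 called in CL KO against CL WT and 0 of 18 in PI KO against PI WT, with 3 and 2 at an unadjusted p under 0.05 by the limma-moderated test. The shares over all genes were 0.0279% and 0.0208% called, and 5.73% and 5.75% at that unadjusted p. In CL 13 of the 16 were positive and 3 negative (median 0.08), and in PI 13 of the 18 were positive and 5 negative (median 0.17). Over all genes the medians were -0.002 and -0.005, with 49.3% and 48.5% positive. Tnfsf11, which encodes RANKL itself, was not analysed here. Fos, an immediate early gene, had 0.77 (SE 0.19, adjusted p = 0.490, limma-moderated) in CL KO against CL WT and 0.63 in PI KO against PI WT. Of 17 listed in PI WT against CL WT, 4 rose and 0 fell, against 5.2% and 5.4% of all genes, among them Tnfrsf11a, the RANKL receptor (0.64), Tyrobp, a microglial adaptor (0.89), and Nfkb2 (1.16). Of 17 in PI KO against CL KO, Plcg2 (1.14) and Tyrobp (1.11) rose and Fosl2 fell by 0.71, where 5.11% of all genes rose and 4.94% fell. The list median was 0.26 in PI WT against CL WT and 0.28 in PI KO against CL KO, against 0.01 and -0.0007 over all genes.

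Other neuronal genes for surface or secreted leucine-rich repeat proteins were read beside Lrrc17. Of 46, 42 were listed, and 0 were called between genotypes in CL or in PI, with 4 and 2 at an unadjusted p under 0.05 by the limma-moderated test (all genes: 0.0279% and 0.0208% called, 5.73% and 5.75% at that p). Between PI WT and CL WT 0 rose and 10 fell, where 5.2% and 5.4% of all genes did, with a median of -0.16 against 0.01 over all genes. Lrrc17 had 0.51. Between PI KO and CL KO 1 rose and 7 fell, where 5.11% and 4.94% of all genes did, with a median of -0.15 against -0.0007.

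The genes whose deposited values ran most like those of Lrrc17 were Tlr4, an innate immune receptor, Arhgap29, Pa2g4, Zfp420 and Rpl19-ps11. Likeness was the lower of 2 Pearson correlations, over the 12 libraries of the CL table and the 12 of the PI table, among 13254 genes. It was 0.858 for Tlr4, 0.829 for Arhgap29, 0.790 for Pa2g4, 0.769 for Zfp420 and 0.761 for Rpl19-ps11. These points share libraries and drawn-in values, and the ranking is a description. The CL correlation includes the difference between CL KO and CL WT that picked Lrrc17, and taking the lower of 2 correlations favours low values. Armc10 ranked 8467 (-0.37 in the CL table and -0.05 in the PI table). Napepld ranked 11058 (-0.59 and -0.40). Of the 5 most like Lrrc17, Tlr4 had differences of 0.34 in CL KO against CL WT and 0.38 in PI KO against PI WT, with neither called (adjusted p = 0.878 and 0.854, limma-moderated). In the same comparisons Arhgap29 had 0.16 and 0.06, Pa2g4 0.09 and 0.05, Zfp420 0.15 and -0.05, and Rpl19-ps11 0.62 and 0.32, also not called. From CL to PI, Pa2g4 was called in WT animals (0.24, adjusted p = 0.0454, limma-moderated), where 10.6% of all genes were. Tlr4 was called in KO animals (0.66, adjusted p = 0.0332, limma-moderated), where 10% were.

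Markers of cell types were read beside these results, since in bulk tissue fewer cells of a type and less RNA per cell cannot be told apart. All 12 neuron and 9 astrocyte markers were listed, summing to about 9394 and 7682 CPM (medians) in CL KO, and 9493 and 7739 in CL WT, so markers that define cortical cells were present. Fibroblast markers of meninges and vessels had positive values in 9 of 10 genes in CL KO against CL WT, with a median of 0.38 and 0 called, where 49.3% of all genes were positive and 0.0279% called. Their summed level was 109 to 130 CPM in CL KO and 105 to 124 in CL WT. In PI WT against CL WT 7 of 10 were positive, 2 rose and 1 fell, where 52.3% of all genes were positive, 5.2% rose and 5.4% fell. The sums were 128 to 146 CPM in PI WT and 107 to 127 in CL WT. In PI KO against CL KO, where Lrrc17 was not called, 2 fibroblast markers also rose and 1 fell, where 5.11% and 4.94% of all genes did. In PI KO against PI WT 8 of 10 were positive (median 0.10, 0 called), where 48.5% of all genes were positive and 0.0208% called. Microglial markers were positive in 7 of 8 in CL KO against CL WT (median 0.19, 0 called), with sums of 178 to 193 CPM against 168 to 179. In PI WT against CL WT 4 of 8 rose and 1 fell, where 5.2% and 5.4% of all genes did, with sums of 189 to 211 against 172 to 183. Microglial markers also had 4 of 8 rising and 1 falling in PI KO against CL KO (median 0.47), where 5.11% and 4.94% of all genes did. In PI KO against PI WT 7 of 8 were positive (median 0.18, 0 called), where 48.5% of all genes were positive and 0.0208% called. Oligodendrocyte markers were negative in 8 of 8 in CL KO against CL WT (median -0.17, 0 called), with sums of 1747 to 2377 CPM against 2182 to 2386. In PI WT against CL WT 7 of 8 oligodendrocyte markers were negative, 2 fell and 0 rose. Of 12 neuron markers there 9 were negative, 3 fell and 0 rose. Of 9 astrocyte markers there 6 were negative, 2 fell and 1 rose. Over all genes in that comparison 52.3% were positive, 5.2% rose and 5.4% fell. Of 7 choroid plexus markers 1 was listed in the CL table, at 2.15 to 3.43 CPM in CL KO and 2.48 to 3.55 in CL WT, and of 7 neutrophil and monocyte markers 0 were. In CL KO against CL WT 5 of 7 endothelial and 3 of 4 blood markers were positive (medians 0.13 and 0.65). There 1 of 6 pericyte and 1 of 5 striatal markers were. In PI WT against CL WT 6 of 7 endothelial and 4 of 4 blood markers were positive (medians 0.30 and 0.72). There 1 of 6 pericyte and 3 of 5 striatal markers were. Over all genes 49.3% and 52.3% were positive. In PI KO against CL KO, where Lrrc17 was not called, 6 of 7 endothelial and 4 of 4 blood markers were positive. The part of any of these cell types in the Lrrc17 values was not tested.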

How the data were processed

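TRIzol RNA of mouse cortex was cleared of DNA (TURBO DNA-free), and 600 ng of it was depleted of rRNA (RiboCop) and made into CORALL libraries, per the labels' protocols. The authors deposited log2 CPM (read counts scaled to a library total) in 4 tables of 12 libraries, 1 per pair of groups, with 0 unused value columns. The genome build is mm10, per the submitters' processing notes. The aligner, annotation, counting, use of strand and of molecular identifiers, handling of reads with several matches, and gene filter are not given in the sources used here. Each library's values in its 2 tables were apart by 0.0256 to 0.0364 (median over genes, log2).

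The deposited log2 values are Winsorized, a step no label records. The tied values are group quartiles, 0.75 times the second value plus 0.25 times the third, and the 4 inner values were solved from them. After this step 78.9% to 88.0% of low tied values per group and table were whole numbers of reads within 0.03 read, against 8.33% to 13.7% before, where chance gives 12%. The test compared trimmed means, with the Winsorized sum of squares as error (6 degrees of freedom for 2 groups, 12 for 4), moderated by the empirical Bayes method of limma 3.58.1 (R 4.3.3) with a mean trend. It was two-sided, with Benjamini-Hochberg adjustment over all genes of a table, and calls at an adjusted p under 0.05. A run on simulated data covered 2 independent groups only, not the pairing of CL and PI libraries or the interaction, and its outcome is not given here. Count tests were not run. Nothing in the labels says that numbers pair animals across genotypes. CL and PI libraries of a number come from 1 animal per the labels, and their deviations correlated at -0.006 to 0.209 in WT and -0.012 to 0.190 in KO. The trimmed-mean test took all libraries as independent and did not use this pairing. Its p-values measure the spread between libraries. In PI against CL and in the interaction, libraries of both groups come from the same animals, so the spread of the difference within an animal was not measured.

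Exonic lengths (merged exons) and positions are from GENCODE M21 on GRCm38, the assembly of mm10. Of 14769 symbols, 14367 had a length. Transcripts were compared with Bc1 by blastn 2.17.0 (at least 80 bases, 90% identity). Members and lists were chosen with earlier results of these data known. Named genes are the members, called or non-overlapping genes within 1 Mb, the list genes with the smallest p, the 5 most like Lrrc17, those next to it in level, and the Bc1 matches, added after values were seen. Alternatives were limma on the deposited values with and without the replicate block, no prior trend, 2 scalings, log2(CPM + 1), a filter at 1 log2 CPM, and leaving out each library.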

Additional observations from a re-analysis of the deposited data

How the results depend on the processing

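With the replicate block, limma run on the drawn-in values gave 1868 calls in CL KO against CL WT, 1800 in PI KO against PI WT, 6614 in PI WT against CL WT, 6759 in PI KO against CL KO and 2216 in the interaction. Without the block there were 2311, 2388, 6459, 6666 and 1940, against 4, 3, 1537, 1440 and 0 by the trimmed-mean test. The drawn-in values understate the spread by construction. Under these 2 settings the values of members were the same and some passed the threshold. They were Napepld in PI WT against CL WT (-0.20, limma adjusted p = 0.00219, and 0.00413 with the replicate block), Lrrc17 in PI KO against CL KO (0.12, limma adjusted p = 0.0334 and 0.0438) and, in the interaction, Lrrc17 (-0.39, limma adjusted p = 0.0163 and 0.0135) and Napepld (0.27, limma adjusted p = 0.0328 and 0.0345). The block changed no other call of a member beyond those of limma without it. Across genotypes the numbers name different animals, and same-numbered deviations correlated at -0.181 to 0.134.

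With no trend of the prior variance Lrrc17 was not called in CL KO against CL WT (0.50, limma adjusted p = 0.314) or PI WT against CL WT (0.51, limma adjusted p = 0.109), and 1015 genes were called in PI WT against CL WT and 739 in PI KO against CL KO. The cause was not tested. Centring on the median or upper quartile, log2(CPM + 1), the filter and, added after seeing the data, the interaction from the tables of genotypes kept each member's direction and side of the threshold.

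Leaving out 1 library gave 0.47 to 0.54 for Lrrc17 in CL KO against CL WT, where 6 of 12 fits lost the call, and 0.44 to 0.61 in PI WT against CL WT, where 7 of 12 did. Armc10 ran from -0.03 to 0.10 in PI KO against PI WT. In PI KO against CL KO it ran from -0.02 to 0.11, negative without PI KO replicate 2 or 5 (-0.0215) and CL KO replicate 3 or 4 (-0.0072). Without PI KO replicate 2 or 5 it was -0.0319 in PI KO against PI WT. Counts of calls ran from 3 to 7 in CL KO against CL WT (7 without CL KO replicate 1) and from 900 to 1602 in PI KO against CL KO (900 without CL KO replicate 5 and 922 without PI KO replicate 2).

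The percentile of Lrrc17 was 99.3 without division by length, 99.6 in CL KO of both tables (99.56), 99.62 and 99.61 in PI KO and 99.60 in PI WT. That of Armc10 was 47.7 without division by length, 50.8 and 50.9 in CL KO and 51.0 in PI WT of the table of genotypes. That of Napepld was 57.7 without division by length, 56.5 in CL KO, 57.9 and 57.5 in PI KO, 55.9 and 56.0 in PI WT, and 60.4 in CL WT of the table with PI WT. Depth limits low genes most, and 3 reads correspond to 0.286 to 0.801 CPM.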
